A study of Homo sapiens with 12 samples.

Results

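The MAGEA genes are a family of cancer-testis antigen genes on chromosome X, and 10 of them were taken by symbol from the 63241 genes of each count table. They are MAGEA1, MAGEA2, MAGEA3, MAGEA4, MAGEA6, MAGEA8, MAGEA9, MAGEA10, MAGEA11 and MAGEA12. They were chosen by their own RNA levels, since members part ways in the groups KD2 and KDR, so member values in comparisons that involve KD2 or KDR are given as a description with their fitted error, and their counts of calls are not read as a result. KD1 against NT played no part in the choice and is given with its test. RNA was measured in 12 libraries, made by poly-A selection from total RNA, with 3 in each of 4 groups, of the established cell line MDA-PCa-2b, grown from a human prostate cancer. KDR is labelled as a rescue of the second DHODH knockdown, KD2 as that second knockdown, KD1 as the first DHODH knockdown, and NT has no further label. DHODH encodes dihydroorotate dehydrogenase, a mitochondrial enzyme of pyrimidine synthesis. How the knockdowns and the rescue were built, and whether a group is a clone or a pool, is not in the labels, and the growth protocol also names a sister line, MDA-PCa-2a.

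MAGE proteins share a MAGE homology domain and many of them bind RING-type ubiquitin ligases, whose substrates or activity they then alter. MAGEA genes are transcribed in germ cells of the testis and in placenta, are silent in most other adult tissues with methylated CpG sites at their promoters, and are switched on in many tumours. Peptides of MAGEA proteins are shown on HLA class I molecules, which made MAGEA1, MAGEA3 and MAGEA4 targets for T cell therapies.

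Library totals ran from 23786288 to 38240369 counts. DHODH itself did not fall in the libraries labelled as its knockdowns, so groups are named here only as their labels name them. DHODH had 17.5 to 19.2 CPM (counts per 1e6 counts) in KDR, 11.4 to 14.9 CPM in KD2, 9.62 to 11.0 CPM in KD1 and 8.95 to 13.4 CPM in NT. Its log2 fold change was 0.31 ± 0.14 (SE) in KD2 against NT (edgeR adjusted p = 0.097) and -0.03 ± 0.14 in KD1 against NT (edgeR adjusted p = 0.97). It was 0.82 ± 0.14 in KDR against NT (edgeR adjusted p = 1.0e-04). Luminal prostate markers were present, with none of 7 at 0 counts, and summed to 15057 to 15479 CPM in KDR, 9737 to 10036 CPM in KD2, 14807 to 15147 CPM in KD1 and 14686 to 17449 CPM in NT. The 6 germ cell markers, which mark the normal site of MAGEA expression, summed to at most 1.72 CPM in any library. NT replicate 2 stood apart: the spread between replicates, as a biological coefficient of variation, was 5.33% in KDR, 6.82% in KD2, 6.18% in KD1 and 14.0% in NT, or 8.06% in NT without that library. It held the highest NT value for 6 of the 9 members tested and the lowest for 2.

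Promoters are shown for MAGEA4 and MAGEA11, whose RNA differed from NT in opposite directions in KD2, for MAGEA3, whose 300 bases are letter for letter those of MAGEA6, and for MAGEA9, whose RNA was nearly lost in KD2. Each run covers 250 bases before to 50 after a RefSeq start on GRCh38.p14, read on the strand of the gene, with CpG sites in capitals.
MAGEA4, chrX:151912224-151912523, plus strand: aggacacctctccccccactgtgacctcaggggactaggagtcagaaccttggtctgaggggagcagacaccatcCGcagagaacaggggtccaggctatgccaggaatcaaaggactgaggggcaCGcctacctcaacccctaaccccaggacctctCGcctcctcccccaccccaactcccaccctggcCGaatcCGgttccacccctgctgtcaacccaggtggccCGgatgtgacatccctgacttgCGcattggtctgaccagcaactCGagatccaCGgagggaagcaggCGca
MAGEA3, chrX:152698544-152698843, plus strand: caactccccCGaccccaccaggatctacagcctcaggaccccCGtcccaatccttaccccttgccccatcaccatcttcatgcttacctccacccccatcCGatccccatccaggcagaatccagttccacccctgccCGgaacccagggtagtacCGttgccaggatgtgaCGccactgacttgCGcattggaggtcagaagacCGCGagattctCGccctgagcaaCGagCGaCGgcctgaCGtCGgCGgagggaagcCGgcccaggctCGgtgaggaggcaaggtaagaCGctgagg
MAGEA11, chrX:149711810-149712109, plus strand: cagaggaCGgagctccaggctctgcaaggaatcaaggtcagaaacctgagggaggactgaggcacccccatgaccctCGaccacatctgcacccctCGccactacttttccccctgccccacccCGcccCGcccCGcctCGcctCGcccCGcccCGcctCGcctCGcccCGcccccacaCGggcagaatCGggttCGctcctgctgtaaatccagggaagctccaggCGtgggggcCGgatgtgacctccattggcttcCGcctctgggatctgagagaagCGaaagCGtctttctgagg
MAGEA9, chrX:149781680-149781979, plus strand: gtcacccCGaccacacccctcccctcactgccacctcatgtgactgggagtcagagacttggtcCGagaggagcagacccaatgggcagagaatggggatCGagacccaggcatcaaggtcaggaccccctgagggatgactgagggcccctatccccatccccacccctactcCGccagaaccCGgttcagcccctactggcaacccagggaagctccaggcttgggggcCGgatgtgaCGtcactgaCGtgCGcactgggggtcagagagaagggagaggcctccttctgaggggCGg

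RefSeq entries matched 8 of the 10 members, and the start of MAGEA11 lies inside the span that the count tables give the gene. MAGEA1 and MAGEA10 are named only. The run of MAGEA11 holds 21 CpG sites, those of MAGEA3 and MAGEA6 hold 19 each, and that of MAGEA9 holds 10, beside a median of 14 over 35116 RefSeq promoters of the same length. MAGEA4 has 5 listed starts, whose runs hold 10 to 15 CpG sites. The letters CCGGAA and CCGGAT, 2 forms of the site of ETS transcription factors, were searched on both strands. CCGGAA occurs once in MAGEA3 and once in MAGEA6 and in no other member's run, beside 17.2% of all promoters. CCGGAT occurs in each listed run of MAGEA2, MAGEA4, MAGEA8, MAGEA9, MAGEA11 and MAGEA12 and not in MAGEA3 or MAGEA6, beside 7.12% of all promoters. GGGCGG, the SP1 box, occurs 4 times in MAGEA11, beside 45.0% of all promoters with at least one. GGATGTGA, an 8-letter stretch picked after the runs were read because it recurs in them, lies once in each listed run of these 8 members and can overlap CCGGAT, beside 1.16% of all promoters. DNA methylation was not measured in these libraries.

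Members split into those with separate levels in each comparison that involves KD2 or KDR and those whose groups overlapped in each of the 4 comparisons made. MAGEA4, MAGEA10, MAGEA1, MAGEA11 and MAGEA9 made up the first set, and MAGEA3, MAGEA6, MAGEA12 and MAGEA2 the second. In KD1 against NT the groups overlapped for every member of both sets. The share of all genes with separate levels is not given here, so the split describes these members only and is not read as a trait of the family. MAGEA8 had at most 6 counts in a library and did not pass the filter on low counts, so 9 of 10 members were tested. Of these, 2 were higher and 3 lower in KD2 against NT at an edgeR adjusted p under 0.05, beside 17.8% of 19373 genes higher and 18.2% lower. In KDR against KD2, 2 were higher and 3 lower, beside 15.3% and 17.1% of all genes. In KDR against NT, 1 was higher and 4 were lower, beside 13.0% and 14.5%. The rule for choosing members used these comparisons, so nothing is read from the counts. The comparisons also share libraries with each other. In bulk RNA, fewer cells that express a gene and less RNA per cell cannot be told apart.

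**Figure D1:**
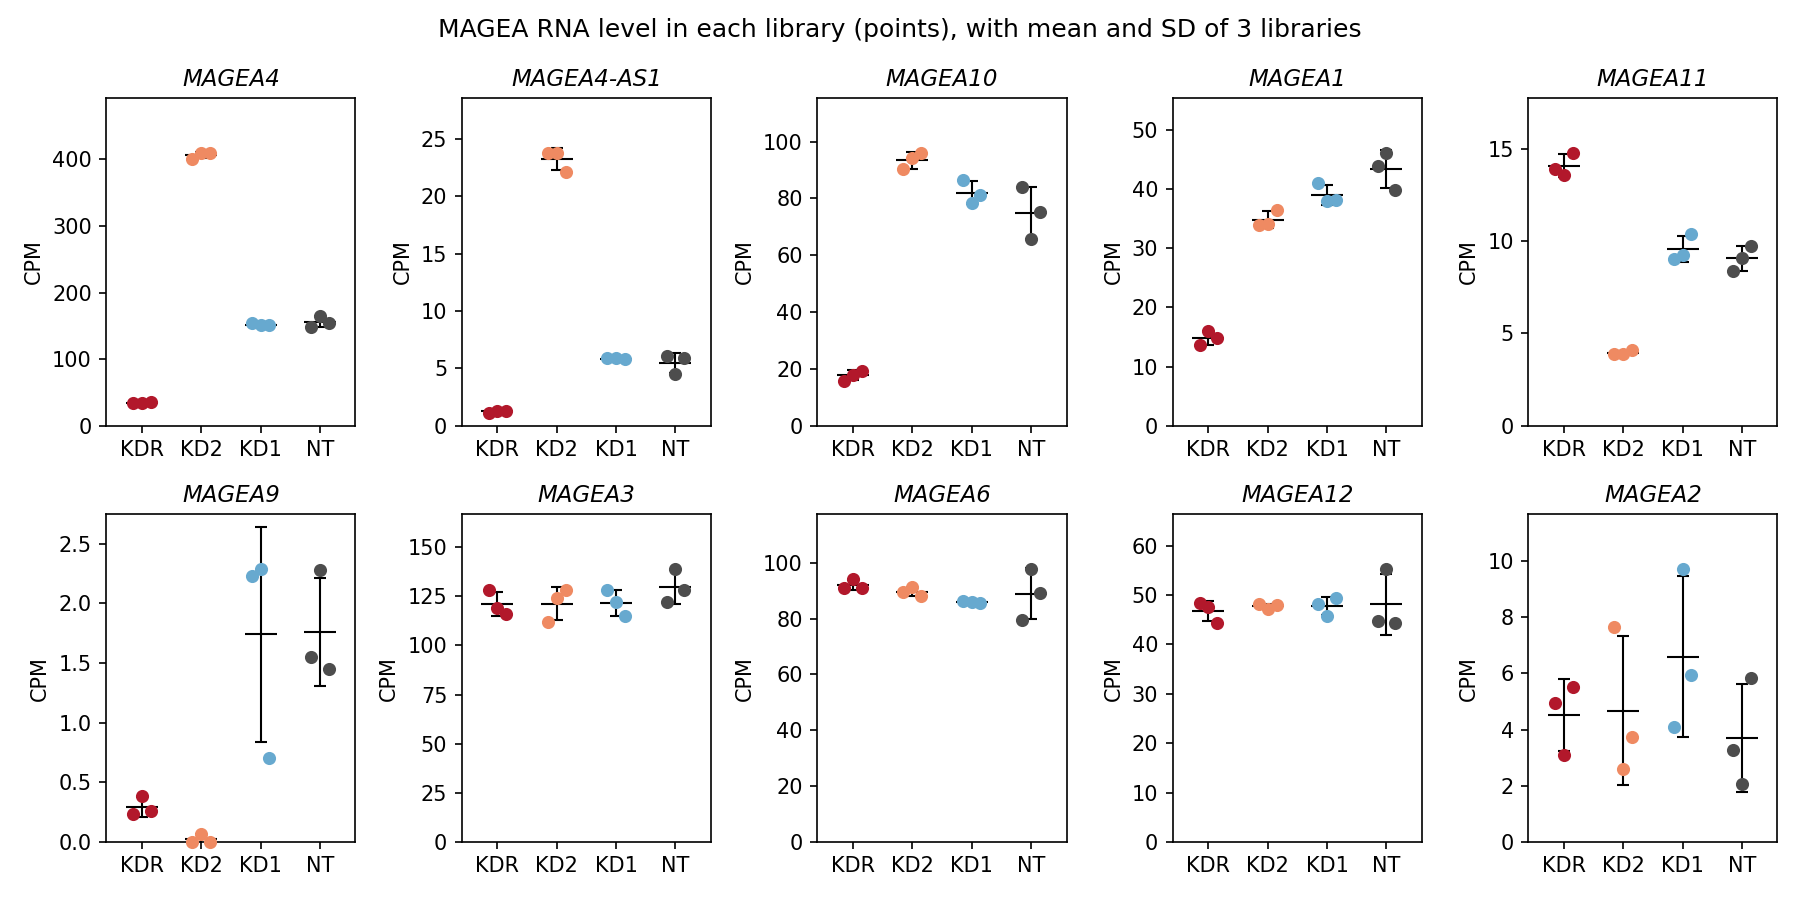
RNA level of 9 MAGEA genes and MAGEA4-AS1 in each of 12 libraries, in CPM on a linear axis from 0 with a scale of its own per gene; points are libraries, the cross bar is the mean and the whiskers the SD of 3 libraries. MAGEA4, MAGEA4-AS1, MAGEA10 and MAGEA1 are lowest in KDR, MAGEA11 and MAGEA9 are lowest in KD2, and MAGEA3, MAGEA6, MAGEA12 and MAGEA2 show no group apart from NT.

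MAGEA4 (ENSG00000147381, GRCh38 chrX:151912495-151925171, plus strand), which is known to stabilise the DNA damage ligase RAD18 in tumour cells, stood highest in KD2 and lowest in KDR. It had 33.9, 34.5 and 35.3 CPM in the libraries labelled KDR, 401, 410.3 and 409 CPM in those labelled KD2, 154, 151 and 151 CPM in KD1, and 149, 165 and 155 CPM in NT. KDR and KD2 each stood apart from every other group, while KD1 lay within the range of NT. The log2 fold change was 1.38 ± 0.05 (SE) in KD2 against NT, which is 2.60-fold, -3.56 ± 0.06 in KDR against KD2 and -2.18 ± 0.06 in KDR against NT. The level in KDR was thus 11.8-fold below KD2 and 4.52-fold below NT.

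MAGEA4-AS1 (ENSG00000229967, chrX:151904431-151913968, minus strand) is annotated on the opposite strand across the start of MAGEA4 and shares 186 exon bases with it. Per the file headers the counting used no strand option, so reads from the shared bases cannot be given to one strand. MAGEA4-AS1 had 1.11, 1.32 and 1.28 CPM in KDR, 23.8, 23.8 and 22.1 CPM in KD2, 5.87, 5.86 and 5.77 CPM in KD1, and 6.05, 4.46 and 5.90 CPM in NT. As for MAGEA4, KD2 was highest and KDR lowest, both apart from the overlapping KD1 and NT. Its log2 fold change was 2.09 ± 0.13 in KD2 against NT, -4.23 ± 0.16 in KDR against KD2 and -2.15 ± 0.17 in KDR against NT. With both genes summed, the level was 35.8 ± 0.803 CPM in KDR, 429.8 ± 4.74 CPM in KD2, 158 ± 1.82 CPM in KD1 and 162 ± 7.44 CPM in NT (SD, n = 3 each).

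MAGEA10 (ENSG00000124260, chrX:152133310-152138578, minus strand), the member nearest to MAGEA4 on the chromosome, had 15.8, 18.0 and 19.4 CPM in KDR, 90.2, 94.1 and 96.1 CPM in KD2, 86.4, 78.4 and 81.3 CPM in KD1, and 83.9, 65.6 and 75.2 CPM in NT. KDR lay far below the other groups, and KD2 lay just above the highest KD1 and NT libraries. The log2 fold change was 0.32 ± 0.08 in KD2 against NT and 0.23 without NT replicate 2, the lowest NT library. It was -2.40 ± 0.09 in KDR against KD2 and -2.08 ± 0.09 in KDR against NT, where the level was 4.24-fold lower. A readthrough gene, MAGEA10-MAGEA5, shares 469 bases or 16.2% of the MAGEA10 exons, and reads in those bases could not be assigned to either gene.

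MAGEA1 (ENSG00000198681, chrX:153179284-153183880, plus strand), whose protein gave the first tumour antigen that human T cells were shown to see, had 13.6, 16.0 and 14.9 CPM in KDR, 33.9, 34.2 and 36.5 CPM in KD2, 41.0, 38.0 and 38.1 CPM in KD1, and 44.0, 46.2 and 39.9 CPM in NT. KDR was again lowest, and unlike MAGEA4 and MAGEA10 the gene was slightly lower in KD2 than in NT, with no overlap. The log2 fold change was -0.32 ± 0.08 in KD2 against NT, -1.23 ± 0.09 in KDR against KD2 and -1.55 ± 0.09 in KDR against NT. No exon base of MAGEA1 is shared with another gene, and none of its 150-base transcript windows occurs in another gene's transcript.

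MAGEA11 (ENSG00000185247, chrX:149688228-149717268, plus strand) showed the reverse pattern. It had 13.9, 13.6 and 14.8 CPM in KDR, 3.89, 3.88 and 4.09 CPM in KD2, 9.05, 9.27 and 10.4 CPM in KD1, and 8.41, 9.08 and 9.75 CPM in NT. KD2 was lowest and KDR highest, both apart from KD1 and NT, which overlapped. The log2 fold change was -1.20 ± 0.13 in KD2 against NT, 1.84 ± 0.13 in KDR against KD2 and 0.64 ± 0.12 in KDR against NT. Of 7 luminal markers, 0 rose and 6 fell in KD2 against NT, beside 17.8% and 18.2% of all genes, and 7 rose in KDR against KD2, beside 15.3%. In KDR against NT 3 rose and 1 fell, beside 13.0% and 14.5%, with a median log2 fold change of -0.07. The part of luminal state in the MAGEA levels was not tested.

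MAGEA9 (ENSG00000123584, chrX:149781930-149787737, plus strand) was measured with few counts. It had 8, 12 and 7 counts in KDR, 0, 2 and 0 counts in KD2, 63, 55 and 27 counts in KD1, and 50, 69 and 38 counts in NT. KD2 was at or next to 0, KDR was low, and KD1 and NT overlapped. Both counts in KD2 came from 1 library, KD2 replicate 2. As each end of a pair was counted they may be 1 fragment, so the size of a fitted difference that involves KD2 is not read. MAGEA9 and MAGEA9B are near copies with 86.4% of 150-base windows of MAGEA9 in common, and summed they held 31 counts in KDR, 4 in KD2, 205 in KD1 and 258 in NT.

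MAGEA3 (ENSG00000221867, chrX:152698767-152702347, plus strand) and MAGEA6 (ENSG00000197172, chrX:152766136-152769716, minus strand) encode partners of the ligase TRIM28, with which they are known to bring the AMPK subunit PRKAA1 to degradation. MAGEA3 had 128, 119 and 116 CPM in KDR, 112, 124 and 128 CPM in KD2, 128, 122 and 115 CPM in KD1, and 122, 139 and 128 CPM in NT. MAGEA6 had 91.0, 94.2 and 91.0 CPM in KDR, 89.5, 91.2 and 88.1 CPM in KD2, 86.3, 86.1 and 85.4 CPM in KD1, and 79.5, 97.8 and 89.2 CPM in NT. MAGEA6 stayed within the range of NT in each of the other groups, while MAGEA3 reached slightly below it in each, with overlap. For MAGEA3 the log2 fold change was -0.10 ± 0.07 in KD2 against NT, 0.00 ± 0.07 in KDR against KD2 and -0.10 ± 0.07 in KDR against NT. For MAGEA6 it was 0.01 ± 0.07 in KD2 against NT, 0.04 ± 0.07 in KDR against KD2 and 0.05 ± 0.07 in KDR against NT. The genes share 27.9% of their 150-base windows, so some reads of each were lost or split. The ratio of MAGEA6 to MAGEA3 per exon length averaged 0.738 ± 0.0429 in KDR, 0.718 ± 0.0560 in KD2, 0.685 ± 0.0338 in KD1 and 0.663 ± 0.0261 in NT (SD, n = 3 each).

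MAGEA12 (ENSG00000213401, chrX:152733757-152737669, plus strand), which lies between MAGEA3 and MAGEA6, had 48.3, 47.5 and 44.4 CPM in KDR, 48.1, 47.2 and 48.0 CPM in KD2, 48.2, 45.8 and 49.4 CPM in KD1, and 44.7, 55.3 and 44.3 CPM in NT. All groups overlapped, and its log2 fold change was -0.01 ± 0.08 in KD2 against NT. MAGEA2 (ENSG00000268606, chrX:152749863-152753884, minus strand) shares 97.8% of its windows with MAGEA2B and varied widely within groups, at 4.52 ± 1.27 CPM in KDR, 4.67 ± 2.65 CPM in KD2, 6.58 ± 2.87 CPM in KD1 and 3.71 ± 1.93 CPM in NT (SD, n = 3 each). Summed with MAGEA2B, the level was 7.41 ± 0.867 CPM in KDR, 8.73 ± 3.13 CPM in KD2, 8.94 ± 3.17 CPM in KD1 and 8.23 ± 1.97 CPM in NT, so no group stood apart. MAGEA8 (ENSG00000156009, chrX:149881141-149885835, plus strand) had 0 counts in KDR, 7 in KD2, 4 in KD1 and 10 in NT over 3 libraries each, too few for a comparison.

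**Figure D2:**
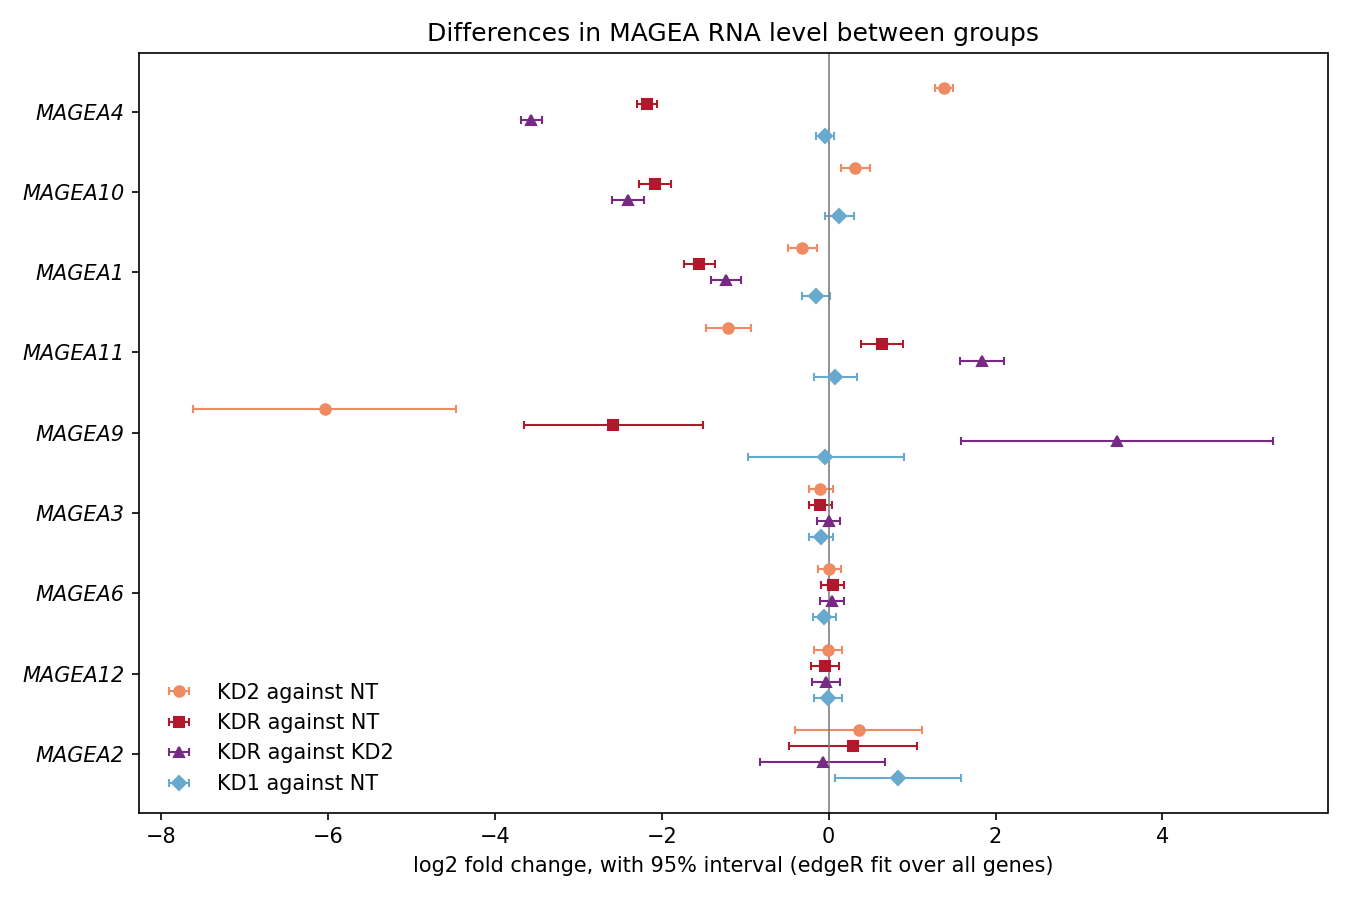
Log2 fold change of each of 9 MAGEA genes in 4 comparisons, with its 95% interval from the edgeR fit over all genes. MAGEA4 and MAGEA10 lie above 0 in KD2 against NT and below it in KDR against KD2, MAGEA11 and MAGEA9 lie the other way round, and MAGEA3, MAGEA6 and MAGEA12 lie near 0 in all 4. For MAGEA9 the values that involve KD2 rest on 2 counts over the KD2 libraries, and their size is not read.

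KD1 against NT, the comparison that did not enter the choice of genes, gave no call among the 9 members tested, and none among 19373 genes (0% called), where the smallest edgeR adjusted p was 0.79. Before adjustment, 1185 genes or 6.12% had an edgeR p under 0.05, and DESeq2 also called 0 genes. The median log2 fold change was -0.04 over the members and -0.01 over all genes. MAGEA4 had a log2 fold change of -0.04 with a 95% interval of -0.15 to 0.07 (edgeR adjusted p = 0.90), an interval that ends far below its difference in KD2 against NT. MAGEA11 had 0.08 (-0.17 to 0.34; edgeR adjusted p = 0.91) and MAGEA10 had 0.13 (-0.04 to 0.30; edgeR adjusted p = 0.79). MAGEA2 was the 1 member with an edgeR p under 0.05 before adjustment. Its log2 fold change was 0.83 (0.08 to 1.58; edgeR adjusted p = 0.79), while its near copy MAGEA2B had -0.96. The interval of MAGEA9, -0.97 to 0.90, was too wide to exclude a change of nearly 2-fold.

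The make-up of the family differed between groups when levels were set per kilobase of exon. The summed level of the 10 genes was 174 ± 2.94 CPM per kb in KDR, 318 ± 6.64 in KD2, 243 ± 5.69 in KD1 and 249 ± 13.0 in NT (SD, n = 3 each). MAGEA4 made up 5.91% of the sum in KDR, 37.9% in KD2, 18.6% in KD1 and 18.6% in NT. MAGEA3 made up 39.3% in KDR, 21.5% in KD2, 28.2% in KD1 and 29.3% in NT. The MAGEA3 share differed while its own level overlapped between groups, because the sum around it differed.

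Per kb of this exon length, MAGEA4 led the family in KD2 and lay behind MAGEA3, MAGEA6 and MAGEA12 in KDR. Before division by length, MAGEA4 averaged 152 CPM in KD1 and 156 CPM in NT, above MAGEA3 at 122 and 129.6 CPM. Its place behind MAGEA3 in KD1 and NT thus turns on the length used, and so does the size of a ratio per kb. In KDR the order per kb was MAGEA3, MAGEA6, MAGEA12, MAGEA4, MAGEA1, MAGEA10, MAGEA11, MAGEA2, MAGEA9 and MAGEA8, with no overlap between neighbours. In KD2 it was MAGEA4, MAGEA3, MAGEA6, MAGEA10, MAGEA12 and MAGEA1, again without overlap, and then MAGEA2 and MAGEA11, which overlapped, and MAGEA8 and MAGEA9 near 0. In KD1 it was MAGEA3, MAGEA6, MAGEA4, MAGEA10, MAGEA12 and MAGEA1, where MAGEA12 and MAGEA1 overlapped, followed by MAGEA2 and MAGEA11, which overlapped, MAGEA9 and MAGEA8. In NT it was MAGEA3, then MAGEA6 and MAGEA4, which overlapped, then MAGEA10, MAGEA1 and MAGEA12, which each overlapped the next, then MAGEA11, MAGEA2 and MAGEA9, which did so too, and MAGEA8. The ratio of MAGEA4 to MAGEA3 per kb put these shifts in 1 number, with 0.139, 0.152 and 0.160 in KDR, 1.89, 1.74 and 1.67 in KD2, 0.635, 0.649 and 0.695 in KD1, and 0.644, 0.626 and 0.635 in NT.

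**Figure D3:**
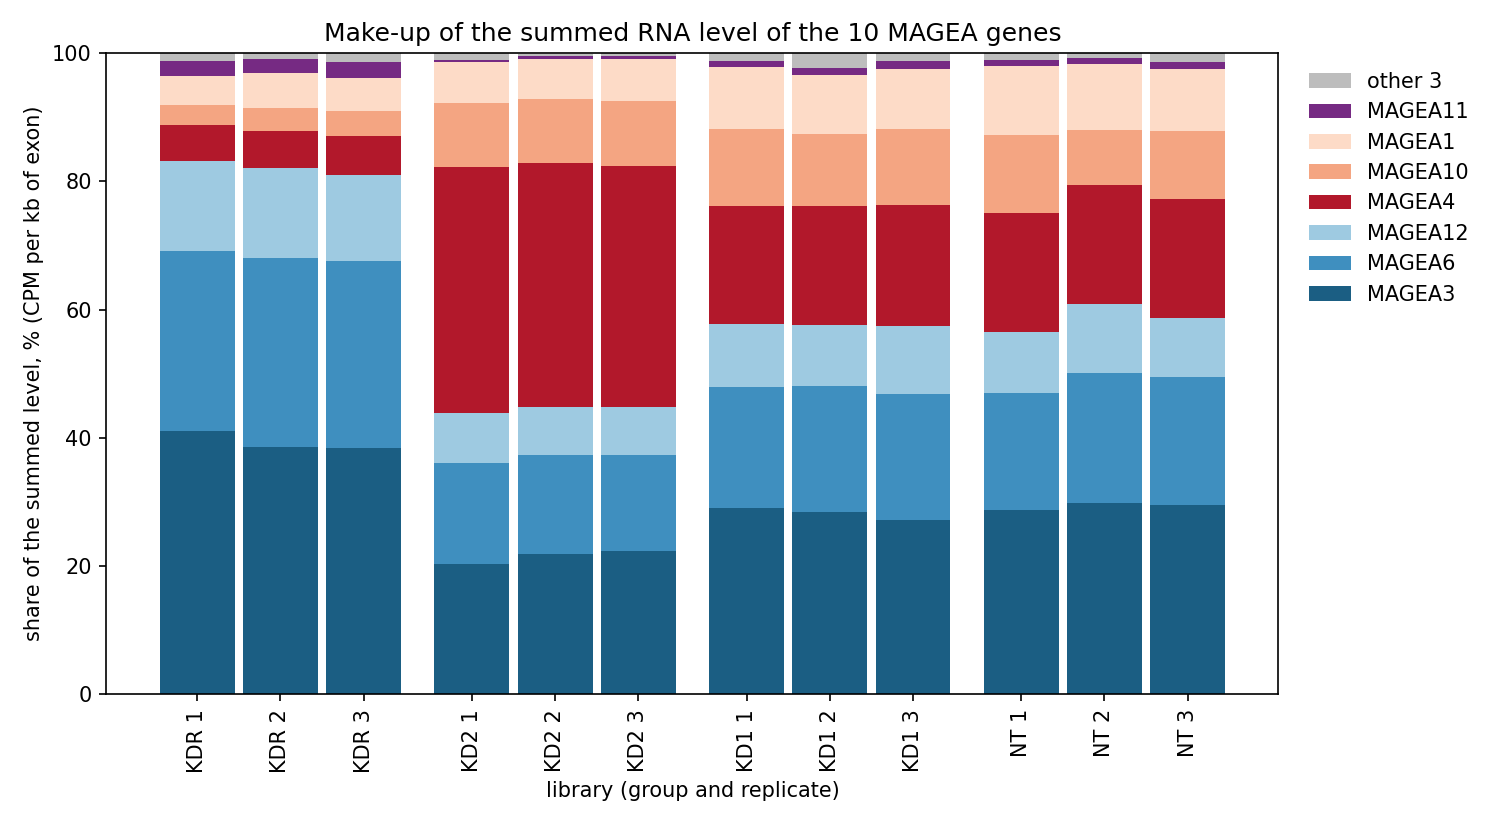
Share of each MAGEA gene in the summed RNA level of the 10 genes (CPM per kb of exon, in percent), 1 bar per library in the 4 groups; MAGEA2, MAGEA8 and MAGEA9 are drawn together as the other 3. MAGEA4 takes 37.5 to 38.3% of the bar in KD2 and 5.70 to 6.15% in KDR, and the replicates of a group look alike.

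The members lie in 4 stretches of chromosome X, and the other genes from 500 kb before the first member to 500 kb after the last were read as neighbours. Of 113 neighbours, 48 had 0 counts in every library and 39 passed the filter. In KD2 against NT 6 of these 39 rose (15.4%) and 9 fell (23.1%) at an edgeR adjusted p under 0.05, beside 17.8% and 18.2% of all genes. In KDR against KD2 7 rose (17.9%) and 4 fell (10.3%), beside 15.3% and 17.1% of all genes. The shares over the whole window in KD2 against NT lay near those of all genes. Of the 39, 4 share exon bases or 150-base windows with a member, namely MAGEA4-AS1, MAGEA9B, MAGEA2B and CSAG4, and their values partly restate those of the member. They are left out of the counts that follow, a choice made after the values were seen.

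Near MAGEA11 and MAGEA9, 0 of 14 neighbours rose and 5 fell in KD2 against NT, beside 17.8% and 18.2% of all genes. In KDR against KD2 5 rose and 1 fell, beside 15.3% and 17.1%. These neighbours include EOLA1, with a log2 fold change of -0.60 ± 0.12 in KD2 against NT and 0.46 ± 0.12 in KDR against KD2. EOLA2-DT had -1.02 ± 0.20 in KD2 against NT and 1.32 ± 0.20 in KDR against KD2. EOLA1 and EOLA2 are near copies of each other, which makes their counts less sure. Near MAGEA4 and MAGEA10, 2 of 5 neighbours rose and 1 fell in KD2 against NT, and 1 rose and 2 fell in KDR against KD2, beside the same shares of all genes. GABRE, a GABA receptor subunit gene whose span begins 41 kb after the start of MAGEA4, had 0.97 ± 0.20 in KD2 against NT and -1.36 ± 0.21 in KDR against KD2. HMGB3, a chromatin protein gene at -932 kb from the start of MAGEA4, had 0.61 ± 0.07 in KD2 against NT. It had -0.1 ± 0.07 in KDR against KD2, without a call, and stayed above NT in KDR, with 0.51 ± 0.07. GABRA3, another subunit gene beyond MAGEA10, went the other way from GABRE, with -0.58 ± 0.10 in KD2 against NT and 0.38 ± 0.10 in KDR against KD2. Around MAGEA3 to MAGEA6, 2 of 8 neighbours rose and 1 fell in KD2 against NT, beside 17.8% and 18.2% of all genes. One that rose there was NSDHL, an enzyme gene of cholesterol synthesis, with 0.67 ± 0.10. In KDR against KD2 1 of these 8 rose and 0 fell, beside 15.3% and 17.1% of all genes. Near MAGEA1, 1 of 8 neighbours rose and 1 fell in KD2 against NT, beside 17.8% and 18.2%. In KDR against KD2 0 rose and 0 fell there, beside 15.3% and 17.1%, while MAGEA1 itself had -1.23 ± 0.09. Each neighbour was put with its nearest stretch after the values were seen, and the counts per stretch are a description.

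**Figure D4:**
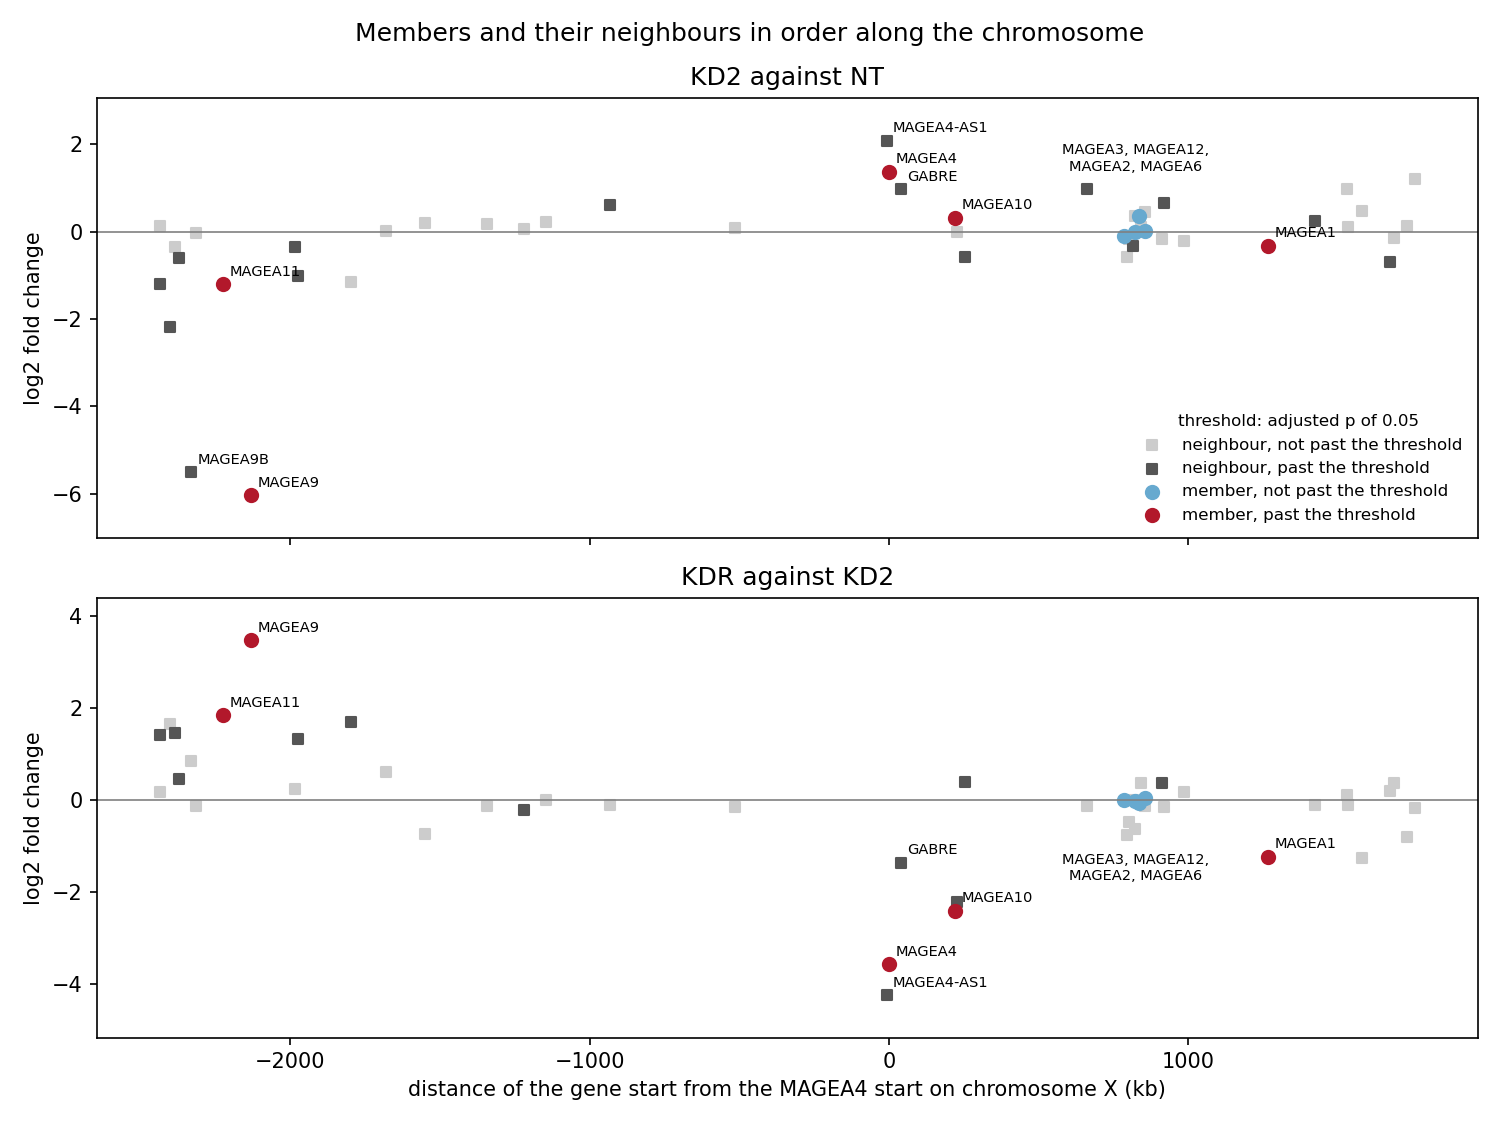
Log2 fold change of MAGEA genes (circles) and neighbours (squares) against the distance of the gene start from the MAGEA4 start on chromosome X in kb, for KD2 against NT (top) and KDR against KD2 (bottom); red and dark points passed an adjusted p of 0.05. Genes past the threshold around MAGEA11 and MAGEA9 lie below 0 in the top panel. Most genes past it around MAGEA4 lie above 0 there and below 0 in the bottom panel. MAGEA3, MAGEA12 and MAGEA6 lie near 0 in both panels, and MAGEA2 lies at 0.36 ± 0.37 (SE) in the top panel, not past the threshold.

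Cancer-testis genes outside the family were called in KD2 against NT about as often as other genes. Of 71 listed genes, 19 had 0 counts in every library and 24 passed the filter. In KD2 against NT 4 rose and 5 fell, beside 17.8% and 18.2% of all genes. In KDR against KD2 5 rose and 5 fell (15.3% and 17.1% of all genes), in KDR against NT 4 rose and 6 fell (13.0% and 14.5%), and in KD1 against NT 0 changed in edgeR. The median log2 fold change of the 24 was -0.03 in KD2 against NT and 0.00 in KDR against KD2, beside -0.01 and 0.02 over all genes, and the list's medians were the same with genes at 0 counts in a group set to 3 counts over that group. PRAME, an antigen that represses retinoic acid signalling, was highest in KD2, as MAGEA4 was, but stood above NT in KDR. It averaged 40.2 CPM in KDR, 79.1 CPM in KD2, 25.0 CPM in KD1 and 26.3 CPM in NT. Its log2 fold change was 1.59 ± 0.08 in KD2 against NT (edgeR adjusted p = 1.5e-13) and 0.61 ± 0.08 in KDR against NT (edgeR adjusted p = 2.1e-06). SPA17, a sperm surface protein gene, fell by 1.10 on the log2 scale in KD2 against NT (SE 0.11, edgeR adjusted p = 2.8e-08) and rose by 1.18 in KDR against KD2 (SE 0.11, edgeR adjusted p = 1.2e-08). DDX53, an RNA helicase gene, averaged 11.3 CPM in KDR, 6.88 CPM in KD2, 25.7 CPM in KD1 and 25.4 CPM in NT. LIN28B, an RNA-binding repressor of let-7 maturation, had 0 counts in KDR and in KD2 and 73 counts in NT. GAGE2A, of a family of near copies on chromosome X, had 7 counts in KDR, 0 in KD2 and 104 in NT. SSX3, which too has near copies, had 64 counts in KDR and 0 in the other groups.

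MAGE genes of other subfamilies gave little RNA where they are germ-line restricted. Of 13 other type I genes, 7 had 0 counts in every library and 1, MAGEB17, passed the filter, without a call. Type II genes, which most tissues use, were stronger, and 7 of 12 passed the filter. In KD2 against NT 1 of them rose and 3 fell, beside 17.8% and 18.2% of all genes. In KDR against KD2 0 rose and 2 fell (15.3% and 17.1% of all genes), and in KDR against NT 1 rose and 4 fell (13.0% and 14.5%). MAGED1, an adaptor of neurotrophin receptor signalling, averaged 115 CPM in KDR, 115 CPM in KD2 and 169.5 CPM in NT, with a log2 fold change of -0.56 ± 0.07 against NT in both. MAGEH1 averaged 1.88 CPM in KDR, 5.28 CPM in KD2 and 5.71 CPM in NT and fell by 1.49 on the log2 scale in KDR against KD2 (SE 0.21).

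Of 17 listed genes for partners and substrates of MAGEA proteins, 15 passed the filter, and 8 rose and 1 fell in KD2 against NT, beside 17.8% and 18.2% of all genes. In KDR against KD2 2 rose and 6 fell (15.3% and 17.1% of all genes), and in KDR against NT 5 rose and 0 fell (13.0% and 14.5%). Whether the list differs from other genes was not tested. TRIM28, the ligase of MAGEA3 and MAGEA6, averaged 390.4 CPM in KDR, 479.9 CPM in KD2 and 369 CPM in NT, with a log2 fold change of 0.38 ± 0.06 in KD2 against NT (edgeR adjusted p = 5.1e-05). PRKAA1, their substrate, averaged 271 CPM in KDR, 189 CPM in KD2 and 239.8 CPM in NT and rose by 0.52 ± 0.09 in KDR against KD2 (edgeR adjusted p = 5.2e-05). RAD18, which MAGEA4 stabilises as a protein, averaged 23.2 CPM in KDR, 25.2 CPM in KD2, 19.2 CPM in KD1 and 15.6 CPM in NT. RAD18 protein was not measured, and a link to the MAGEA4 level was not tested. SKP2, a cell cycle ligase subunit that MAGEA11 binds, averaged 23.6 CPM in KDR, 19.0 CPM in KD2 and 14.2 CPM in NT. Over the 15 genes the median log2 fold change was 0.21 in KD2 against NT, -0.12 in KDR against KD2 and 0.08 in KDR against NT, beside -0.01, 0.02 and 0.01 over all genes.

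Enzymes and readers of DNA methylation and silencing keep MAGEA promoters shut in most tissues. Of 28 listed genes, 27 passed the filter, and 12 rose and 1 fell in KD2 against NT, beside 17.8% and 18.2% of all genes. In KDR against KD2 2 rose and 6 fell (15.3% and 17.1% of all genes), and in KDR against NT 5 rose and 0 fell (13.0% and 14.5%). The median log2 fold change of the 27 was 0.20 in KD2 against NT, beside -0.01 over all genes, and the list was not tested against other genes. UHRF1, which guides DNMT1 to newly copied DNA, averaged 18.2 CPM in KDR, 40.9 CPM in KD2 and 9.00 CPM in NT, with a log2 fold change of 2.19 ± 0.15 in KD2 against NT and -1.17 ± 0.14 in KDR against KD2. HELLS, a chromatin remodeller needed for DNA methylation, averaged 10.5 CPM in KDR, 14.7 CPM in KD2 and 4.84 CPM in NT. DNMT1, the maintenance methyltransferase, averaged 119.9 CPM in KDR, 134 CPM in KD2 and 105 CPM in NT, with 0.36 ± 0.06 in KD2 against NT. UHRF1, HELLS and DNMT1 are also expressed with DNA replication, and their part in the MAGEA levels was not tested. Of 8 listed factors that bind MAGEA promoters, 7 passed the filter, and 0 rose and 2 fell in KD2 against NT, beside 17.8% and 18.2% of all genes. The 2 that fell were ETS2, with a log2 fold change of -0.55 ± 0.06, and ELF1, with -0.21 ± 0.06. ELF1 fell further in KDR, where its log2 fold change against KD2 was -0.33 ± 0.06.

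Of 15 listed genes of the HLA class I pathway, which presents MAGEA peptides, all passed the filter, and 0 rose and 12 fell in KDR against KD2, beside 15.3% and 17.1% of all genes. In KDR against NT 0 rose and 9 fell (13.0% and 14.5% of all genes), and in KD2 against NT 4 rose and 4 fell (17.8% and 18.2%). The median log2 fold change was -0.51 in KDR against KD2 and -0.52 in KDR against NT, beside 0.02 and 0.01 over all genes. HLA-B, a heavy chain gene whose reads may be split with related HLA genes, averaged 26.1 CPM in KDR, 49.2 CPM in KD2 and 45.4 CPM in NT, with a log2 fold change of -0.91 ± 0.09 in KDR against KD2. PSMB8, a subunit of the immunoproteasome, averaged 5.33 CPM in KDR, 18.8 CPM in KD2 and 17.0 CPM in NT. B2M, the light chain, averaged 182 CPM in KDR, 183 CPM in KD2 and 277 CPM in NT and fell by 0.60 on the log2 scale in both against NT (SE 0.05). KDR thus had the lowest MAGEA4, MAGEA10 and MAGEA1 RNA together with the lowest HLA-B and PSMB8 RNA.

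As a description in which the libraries of a group share their source, the profile of each member was compared with those of 12003 protein-coding genes. The most similar genes over the 12 libraries were taken by Pearson's r of log2 CPM. For MAGEA4 they were SPRING1, FNIP2 and SRGAP3 (r of 0.993, 0.993 and 0.991), for MAGEA10 EPB41, LHFPL2 and AGR2 (0.988, 0.987 and 0.987), and for MAGEA1 SDK2, MFHAS1 and PIP5K1B (0.990, 0.987 and 0.987). For MAGEA11 the nearest were TXNIP and SAT1 (0.993 and 0.991). TXNIP, which encodes a thioredoxin-binding protein, averaged 282 CPM in KDR, 82.7 CPM in KD2, 189.9 CPM in KD1 and 192 CPM in NT. The genes nearest to MAGEA3, MAGEA6, MAGEA12 and MAGEA2 had lower values of r, with BDH1 for MAGEA3 (r = 0.920), GMEB2 for MAGEA6 (0.931), ITGAE for MAGEA12 (0.903) and METTL4 for MAGEA2 (0.873). Groups overlapped for these members, so group differences add little to their r, and the lower values are not read as a result.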

How the data were processed

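The authors deposited raw counts per gene, 1 table for each of 12 libraries made by poly-A selection from total RNA. Per the file headers, featureCounts 1.6.4 assigned reads to the exons of each gene of Ensembl release 111 (GRCh38), and its command sets no flag for strandedness, paired ends or multi-mapping. Each end of a pair was thus counted on its own, and near copies such as MAGEA2 and MAGEA2B lose reads. FastQC, cutadapt and HISAT2 are named in the submitters' processing notes, with versions not given in the sources used here. Totals ran from 23786288 to 38240369 counts.

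From these counts, edgeR 4.0.16 in R 4.3.3 fitted 1 quasi-likelihood model to all 12 libraries (filterByExpr, TMM scaling, group as the only term), which tested 19373 genes. Calls are Benjamini-Hochberg adjusted p under 0.05 over all genes tested. CPM are TMM-scaled, and CPM per kb divide by the exon length in the tables. The labels do not say that libraries of a group are separate cultures, so p-values measure a spread that may be technical, and counts of ends are not independent molecules. The method was tested on simulated data. Near copies were found by exact 150-base windows in GENCODE transcripts.

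The members, the gene lists and the rule for named genes were chosen with earlier results of these data known. In each list the rule names up to 4 genes called with the smallest adjusted p per comparison. For each member it names the 3 protein-coding genes of most similar profile among genes of at least 1 CPM. The neighbours EOLA1 and GABRA3 were chosen after their values were seen. Some genes that the rule names are not reported here. Alternatives were DESeq2 1.42.0, its size factors in edgeR, no filter, at least 1 CPM in 3 libraries, only the groups compared, a replicate block, limma-voom (limma 3.58.1) with library weights, leaving out each library and, added after the data were seen, counting neighbours without those that share sequence with a member.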

Additional observations from a re-analysis of the deposited data

How the results depend on the processing

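KD1 against NT gave no call among the members under the 7 other settings or in the 12 fits without 1 library. In the comparisons that involve KD2 or KDR the members were chosen on these values, so unchanged signs there are no sign of stability. Without the filter on low counts, 23 genes were called in KD1 against NT, 1 of them among the other cancer-testis genes, in place of 0. No other count of calls moved by over 1.5 times, that of the neighbours included. Libraries of different groups with 1 replicate number are not paired: 18 same-numbered pairs had residual correlations of -0.02 to 0.04, and 5 of 12 libraries correlated best with their own number. With the replicate block, 0 genes were called in KD1 against NT, 6882 in KD2 against NT, 6190 in KDR against KD2 and 5219 in KDR against NT.

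Signs turned only for members with no call in that comparison. With limma-voom, MAGEA6 stood at 0.020 and MAGEA12 at 0.078 (log2) in KD1 against NT, MAGEA12 at 0.071 in KD2 against NT and 0.045 in KDR against NT, and MAGEA2 at 0.13 in KDR against KD2. Without the filter MAGEA12 stood at 0.011 in KD1 against NT and 0.0040 in KD2 against NT. With only the groups compared, MAGEA12 stood at 0.0036 in KD1 against NT and MAGEA3 at 0.0012 in KDR against KD2, and with at least 1 CPM in 3 libraries MAGEA3 stood at 0.012 there. The cause was not tested. MAGEA9 in KDR against KD2 has no value with only these groups, since it did not pass the filter there. Leaving out 1 library gave, on the log2 scale, in KD1 against NT -0.071 to 0.0064 for MAGEA4, -0.12 to 0.031 for MAGEA6, -0.28 to 0.36 for MAGEA9, -0.058 to 0.11 for MAGEA12, in KD2 against NT -0.22 to 0.83 for MAGEA2, -0.061 to 0.088 for MAGEA6, -0.065 to 0.10 for MAGEA12, in KDR against KD2 -0.36 to 0.51 for MAGEA2, -0.060 to 0.037 for MAGEA3, -0.056 to 0.0019 for MAGEA12, in KDR against NT -0.0060 to 0.76 for MAGEA2, -0.023 to 0.12 for MAGEA6, -0.10 to 0.065 for MAGEA12. For MAGEA9, whose fitted difference turns on the 2 counts of KD2 replicate 2, these fits gave -8.73 to -5.40 in KD2 against NT and 2.82 to 6.16 in KDR against KD2, the larger size in each being that without this library. ELF1 in KD2 against NT, DAXX in KDR against KD2, and MAGED2 and DNMT1 in KDR against NT lost their call in 1 or more of these fits. Depth limits MAGEA8 and MAGEA9, and shared sequence limits MAGEA2 and MAGEA9.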
